A study of Mus musculus with 50 samples.

Results

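CD3-bright cells of mouse liver are described here, that is, the segmented cells with the strongest staining for CD3 protein. Cells with at least 20 gene counts were ranked by their mean CD3 stain within each tissue area, and the top 2% were set against the cells below the median of the same area, called CD3-dim. The rule gave 1001 CD3-bright and 24944 CD3-dim cells among 49917 cells with enough counts and 52132 segmented cells. Apart from the minimum of 20 gene counts the cells were chosen by CD3 stain alone, and the level of no single transcript entered the choice. Stain and transcripts were read from the same segmented cells, so the 2 readouts are not fully independent.

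The CosMx Spatial Molecular Imager, which counts single RNA molecules in place on a tissue section, was used on formalin-fixed, paraffin-embedded sections of 5 µm from the median lobe, with 1000 gene targets and 10 negative probes that match no transcript. Control mice were WT C57BL/6 and HIRA KO mice were HIRA fl/fl C57BL/6. Every mouse received AAV8-TBG-Cre when 6 months old and was collected at 18 months, 12 months after injection, with 3 mice in each group. The TBG promoter drives Cre in hepatocytes, so HIRA, a chaperone that deposits histone H3.3, was to be deleted there and not in lymphocytes, and controls carried the same virus and Cre. Hira is not among the targets, so the deletion could not be checked on its own transcript.

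The 50 fields of view, 25 per genotype, lay on 1 slide in 6 separate tissue areas, 3 per genotype, with 734269 to 1565758 gene counts in the cells kept per area. The labels tie no field of view to a mouse, so the area served as the replicate, and p-values measure only the spread between these areas. All control areas lay to one side of the HIRA KO areas on the slide, so genotype and position on the slide cannot be told apart. Values below follow the order control areas 1, 2 and 3, then HIRA KO areas 1, 2 and 3.

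CD3 is the signalling part of the T cell receptor: the CD3 gamma, delta, epsilon and zeta chains pass the signal of an antigen receptor inside the cell, and the chains appear together on the surface of T cells. Liver holds T cells, natural killer cells and B cells between hepatocytes and in the portal tracts, beside Kupffer cells, the resident macrophages. A stain on a tissue section is read as brightness over the outline of a cell, so neighbouring cells and tissue autofluorescence can enter it. Cd3g, Cd3d and Cd3e lie side by side on chromosome 9 in the RefSeq annotation of GRCm38.p6, at 44969572 to 44980431, 44981769 to 44987052 and 44998735 to 45009663, within 40092 bases. All 3 are targets of the panel, but Cd3e had 0 counts in every cell and could not be used, and the constant chains of the receptor are not among the targets.

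The lowest CD3 stain of a bright cell was 1460.2, 794.5, 1032.2, 2824.2, 987.3 and 2197.3 intensity units in the 6 areas. The highest stain just outside the threshold was 1460.1, 794.2, 1028.7, 2821.6, 986.0 and 2196.2. The threshold therefore cut a continuous distribution in each area and marked no gap. It stood 2.17, 1.33, 1.38, 5.07, 2.04 and 2.79 times above the median stain of its area, so the bright cells of control areas 2 and 3 differed least from the cells around them. These values chose the cells and are given as a description.

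**Figure D1:**
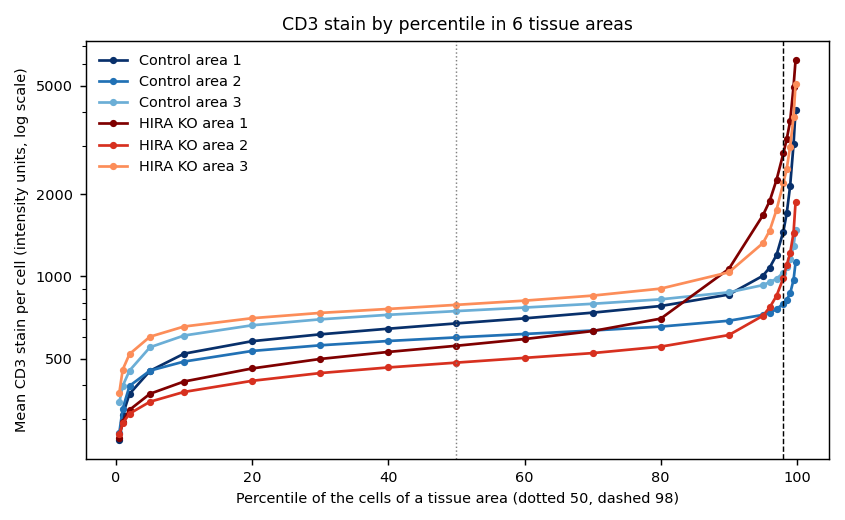
Mean CD3 stain per cell in intensity units (log scale) against the percentile of the cells, 1 line per tissue area, with the median (dotted) and the 98th percentile (dashed). The stain at the 98th percentile lies lowest in control area 2 and highest in HIRA KO area 1, and no area shows a step there.

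Bright cells were not spread alike over the tissue. One field of view held 128 of 164 bright cells of control area 1 (78.0%), 166 of 204 in HIRA KO area 1 (81.4%) and 137 of 151 in HIRA KO area 3 (90.7%). The fullest field of view of the other areas held 27.01%, 17.6% and 22.2% of their bright cells. Among the 20 nearest cells of a bright cell, 51.2%, 4.23%, 6.27%, 35.3%, 7.91% and 42.1% were themselves bright, against 0.260% to 1.66% around dim cells. In 3 of the 6 areas, control area 1 and HIRA KO areas 1 and 3, most bright cells thus lay in a single dense patch, and in the other areas they were scattered. No outline of a patch was drawn, so the patch cells are all bright cells of that field of view, outlying ones included. From the 5th to the 95th percentile of position the patch cells spanned 1268 by 917, 2011 by 1657 and 1802 by 1048 pixels. Because the patches decide much of what follows, many results are given also with the 3 fields of view that hold them left out and the thresholds set anew. Where no such value stands beside a result, it includes the patches.

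**Figure D2:**
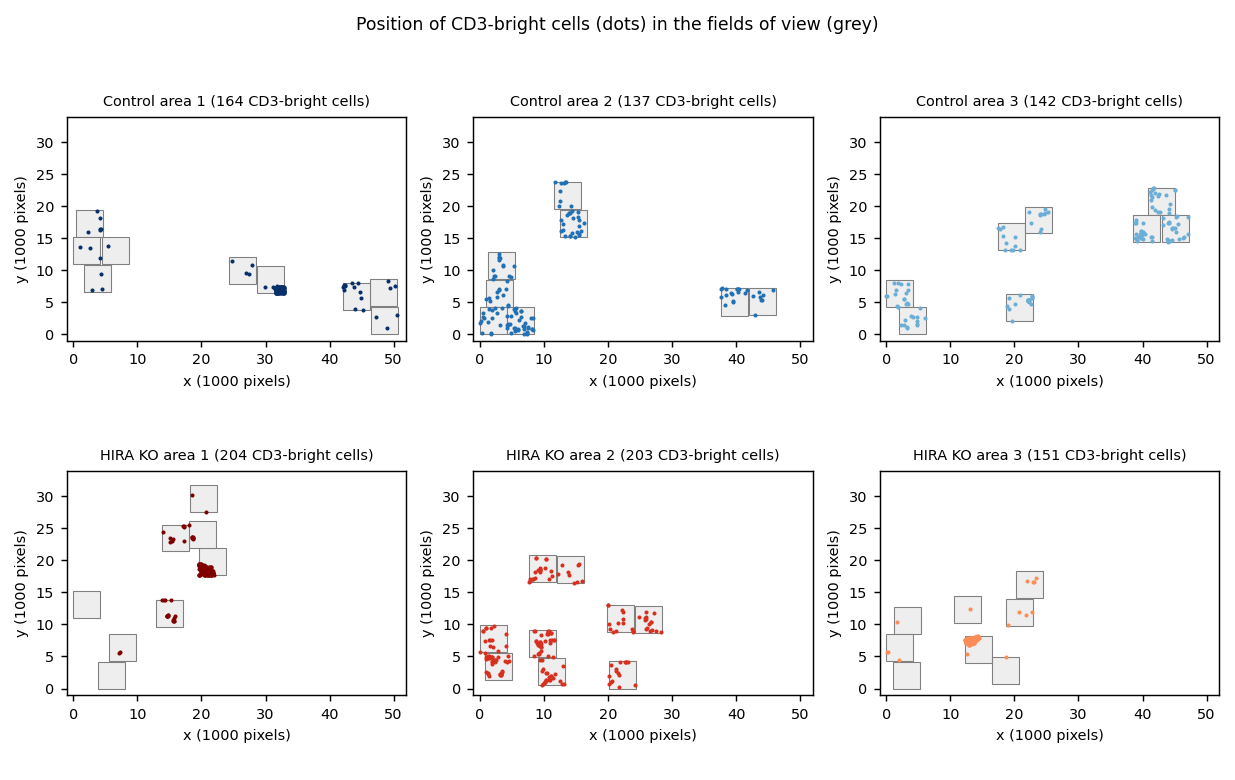
Positions of the CD3-bright cells (dots) in the fields of view (grey squares) of the 6 tissue areas, in units of 1000 pixels. Control area 1 and HIRA KO areas 1 and 3 each have a dense patch in 1 field of view, which holds 128, 166 and 137 bright cells in all. The other areas have none.

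The bright cells were also bright in the leukocyte stain CD45. The median CD45 stain of bright cells was 17.8, 4.27, 6.80, 22.9, 7.28 and 21.7 times that of dim cells of the same area. The nuclear stain DAPI was 4.77, 1.02, 1.36, 3.74, 1.29 and 4.26 times as strong, high in the areas with a patch and near 1 in control area 2. PanCK, the keratin stain, was 0.572, 1.33, 1.08, 0.490, 1.08 and 0.522 times that of dim cells, so it was lower only in the areas with a patch. Of the bright cells, 72.0%, 32.1%, 37.3%, 49.5%, 35.96% and 60.9% were in the top 2% for CD45 as well. In control area 2, 45.3% of them were in the top 2% for PanCK, against 16.9% and 15.3% in the other scattered areas and 0.490% to 3.31% in the areas with a patch. All stains came from the same images, so these values describe the cells and were not tested.

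Bright cells were small. Their median area was 6051.5, 8605, 6544.5, 5369, 6730 and 4921 square pixels, against 12976, 14502, 9571.5, 8783.5, 8701 and 11968 for dim cells. The median was smaller in 6 of 6 areas, with a mean difference of bright minus dim of −4714 ± 2181 square pixels (SD, n = 6 areas; exact sign-flip permutation test, two-sided, p = 0.03125, the smallest p that 6 areas allow). Median gene counts per bright cell were 147.5, 101, 70, 155.5, 104 and 197, and per dim cell 97, 142, 88, 106, 114 and 143. Only the 3 areas with a patch had more counts per bright than per dim cell, and the mean difference of 14.2 ± 41.99 counts was within the spread (exact sign-flip permutation test, p = 0.5, n = 6). With the patches left out this difference was −25.8 counts (exact sign-flip permutation test, p = 0.03125, n = 6). Per 1000 square pixels bright cells held 22.8, 10.4, 10.9, 28.3, 15.2 and 39.7 gene counts, against 7.25, 9.87, 6.92, 10.5, 11.3 and 11.03 for dim cells. This density was higher in 6 of 6 areas, by 11.7 ± 10.8 counts (exact sign-flip permutation test, p = 0.03125, n = 6), and least so in control area 2. Bright cells lay within 50 pixels of the edge of a field of view in 3.97% to 13.1% of cases and dim cells in 4.77% to 5.76%.

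Gene counts were summed over the bright and over the dim cells of each area, which gave 13393 to 35851 counts per bright sum and 369479 to 745279 per dim sum. Levels are given as CPM, the counts of a target scaled to the total gene counts of the sum, and only values of the same target are compared, since probes differ in efficiency. Fold changes are from edgeR's quasi-likelihood fit with the area as a block, after TMM scaling, with Benjamini-Hochberg adjusted p over 998 targets. At an adjusted p under 0.05, 201 targets were higher in bright cells (20.1%) and 123 were lower (12.3%). Both directions together made 32.5% of the targets. Under scaling by library size alone the median log2 fold change over the targets went from −0.05 to −0.27, with 122 higher and 279 lower, so the share of calls that were higher went from 62.0% to 30.4%. Of the called targets, 206 differed in one direction in all 6 areas. The total counts of 33 higher and 14 lower targets were no greater than that of the highest negative probe, so 168 higher and 109 lower calls stood above this background. Leaving out the patches, 165 were higher (16.5%) and 85 lower (8.52%), and 144 and 71 of these were among the calls above. Among small cells only, those under the median area of their tissue area on both sides, 134 were higher (13.4%) and 87 lower (8.73%). The counts of list members below are to be read beside these shares. The brightest pixel of a cell in place of its mean stain left 1 higher target, Ikzf3, and 1 lower, Spp1. Without bright cells that were also in the top 2% for CD45, PanCK or B2M the counts were 99 and 45, and without HIRA KO area 1 they were 143 and 74.

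Among the T cell receptor genes, both measured members were higher in bright cells, beside the 20.1% of all targets. Cd3d, the delta chain, stood at 1654, 2150, 2315, 2008, 2313 and 2715 CPM in bright cells and at 904, 1199, 1012, 997, 1061 and 935 CPM in dim cells. The 2 sides did not overlap, and the log2 fold change was 1.32 ± 0.15 (SE; edgeR, adjusted p = 4.07e-06), or 2.49-fold. Cd3g, the gamma chain, stood at 2179, 1314, 1867, 2817, 1922 and 2684 CPM against 908, 767, 771, 849, 751 and 721 CPM. It did not overlap either and was 3.11-fold higher, with a log2 fold change of 1.64 ± 0.17 (edgeR, adjusted p = 1.36e-06). Control area 2 had the lowest Cd3g in bright cells. With the patches left out the log2 fold changes were 1.32 and 1.49, and with only small cells on both sides 1.48 and 2.18. Without the bright cells that were also in the top 2% for CD45, PanCK or B2M they were 1.37 and 1.41, and each of these passed the same threshold. By the brightest pixel they were 0.72 and 0.95 and did not pass (adjusted p = 0.076 and 0.058, edgeR). The negative probes averaged 129 to 376 CPM per probe in bright and 376 to 445 CPM in dim cells.

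Counted per cell, the same transcripts were sparse. A Cd3d or Cd3g transcript was found in 42.7%, 24.8%, 29.6%, 47.5%, 35.96% and 55.0% of bright cells and in 17.8%, 23.1%, 14.5%, 18.9%, 20.1% and 22.1% of dim cells. Many bright cells in every area thus had neither, so they are called CD3-bright here and not T cells, and in control area 2 the share was close to that of the dim cells. Counts per cell differ between the sides, so each cell was thinned to 20 gene counts, which left a transcript of either gene in 9.76%, 5.11%, 13.4%, 9.31%, 11.8% and 9.27% of bright and 3.03% to 3.64% of dim cells. The thinned share was higher in bright cells in 6 of 6 areas and least so in control area 2. The first 2 negative probes together, a background of this count for a pair of targets, were found unthinned in 3.66% to 8.76% of bright and 7.07% to 12.2% of dim cells, below the share of dim cells with Cd3d or Cd3g in each area.

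Read the other way, most Cd3 counts lay outside the bright cells, background counts included. Below the 50th percentile of the stain Cd3d stood at 903 to 1199 CPM and Cd3g at 721 to 908 CPM. Negative probes averaged 376 to 445 CPM per probe in dim cells. How many of the Cd3 counts outside bright cells were background was not tested. Bright cells held 5.29%, 2.62%, 3.97%, 6.11%, 4.17% and 6.59% of all Cd3d and Cd3g transcripts counted in cells. Of the cells with 3 or more such transcripts, which numbered 42, 107, 47, 125, 124 and 165, bright cells made up 14.3%, 4.67%, 4.26%, 14.4%, 8.87% and 13.9%. The rule itself fixes 2% of all cells as bright. Median gene counts of the cells with 3 or more were 154 to 281, above the 83 to 126 of cells with none.

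The T cell surface and signalling genes were mostly higher: 15 of 23 passed and none was lower, beside 20.1% and 12.3% of all targets. Their median log2 fold change was 0.85 beside −0.05 over all targets. Of the 23 members, 12 had total counts above the highest negative probe. Cd52, a small glycoprotein of lymphocyte surfaces, stood at 4479, 1732, 4107, 7754, 2385 and 7311 CPM in bright and 766 to 1030 CPM in dim cells, 5.37-fold higher (edgeR, adjusted p = 1.36e-06). Bright cells of the areas with a patch held the most of it. Cd52 is also counted below among the genes that all leukocytes share, so it is not particular to T cells. Cd2, an adhesion receptor of T and natural killer cells, stood at 1775, 955, 1568, 1897, 1424 and 2098 CPM against 457 to 790 CPM, 3.16-fold higher (edgeR, adjusted p = 1.53e-06). Both sets of values were separate in all areas, and both were lowest in bright cells of control area 2. Il7r, the interleukin-7 receptor that keeps resting T cells alive, had a log2 fold change of 0.95 ± 0.16. Without the patches 16 of 23 were higher, beside 16.5% of all targets.

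The coreceptors that divide T cells into helper and cytotoxic cells differed less clearly. Cd8a stood at 282, 239, 1568, 586, 605 and 586 CPM in bright cells against 388, 433, 273, 361, 339 and 312 CPM in dim cells. It was higher in 4 of 6 areas, with a log2 fold change of 0.99 ± 0.29 (edgeR, adjusted p = 0.0129), and control area 3 had by far the most. Cd8b1, the partner chain, was higher in 6 of 6 areas, with 0.84 ± 0.18 (edgeR, adjusted p = 0.00127). Cd4 stood at 323, 179, 224, 307, 214 and 370 CPM against 236 to 309 CPM and did not pass (log2 fold change 0.26 ± 0.26, edgeR, adjusted p = 0.467). With small cells only, Cd4 had a log2 fold change of 1.12 (adjusted p = 0.037) and Cd8a of 0.94 (adjusted p = 0.078). Both coreceptors were near the background: Cd4 in dim cells of every area, and in bright cells of control areas 2 and 3 and HIRA KO area 2, lay below the mean negative probe of the same cells, and so did Cd8a in dim cells of 4 areas and in bright cells of control area 2. Cd4, Cd8a, Cd8b1, Il7r and Cd2 were chosen after their values were seen.

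Of 9 T cell transcription factors, 6 were higher and none lower, beside 20.1% and 12.3% of all targets, with a median of 0.89. Stat4, which carries the interleukin-12 signal in T and natural killer cells, stood at 807, 597, 821, 781, 534 and 710 CPM in bright cells against 281 to 462 CPM in dim cells. The sides did not overlap and the log2 fold change was 1.24 ± 0.19 (edgeR, adjusted p = 6.15e-05). Eomes, a factor of cytotoxic and memory cells, was the member nearest to a lower call, at −0.26 (edgeR, adjusted p = 0.294). Without the patches 5 of 9 were higher, beside 16.5% of all targets.

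Cytotoxic and natural killer genes were higher in 9 of 17 cases and lower in none, beside 20.1% and 12.3% of all targets. Their median was 0.46. Ccl5, a chemokine stored by cytotoxic and memory T cells and by natural killer cells, had the largest fold of all targets that met the naming rule. It stood at 8231, 2866, 15083, 9818, 6726 and 7497 CPM in bright cells and at 1318, 1330, 1302, 1451, 1287 and 1328 CPM in dim cells. Dim cells were alike in all areas, bright cells of control area 2 were lowest and those of control area 3 highest. The log2 fold change was 2.73 ± 0.27 (edgeR, adjusted p = 5.95e-07), or 6.62-fold, and 2.79 with the patches left out. Nkg7, a protein of cytotoxic granules, was 2.51-fold higher, with 1049, 1553, 2837, 2789, 1922 and 1203 CPM against 725 to 1024 CPM. Ncr1, the natural killer receptor NKp46, did not pass, at −0.26 (edgeR, adjusted p = 0.356). By library size alone 4 of 17 were higher, beside 122 of 998 targets.

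Chemokines and receptors of lymphocyte homing were higher in 8 of 12 cases and lower in none, beside 20.1% and 12.3% of all targets. Their median was 0.60. Itgal, the alpha chain of LFA-1 by which lymphocytes hold on to vessel walls, stood at 1049, 1194, 1195, 1283, 1174 and 1512 CPM in bright against 368 to 531 CPM in dim cells. The bright values lay close together over the areas and apart from all dim values, with a log2 fold change of 1.61 ± 0.15 (edgeR, adjusted p = 5.95e-07). Cxcr6, a receptor of liver-resident lymphocytes, had 0.88 ± 0.17 and Cxcr3, a receptor for interferon-induced chemokines, 0.65 ± 0.14 (both chosen after their values were seen). Itgae, the alpha chain of an integrin of tissue-resident T cells, did not pass, at −0.22 (edgeR, adjusted p = 0.407). Without the patches 7 of 12 were higher, beside 16.5% of all targets.

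**Figure D3:**
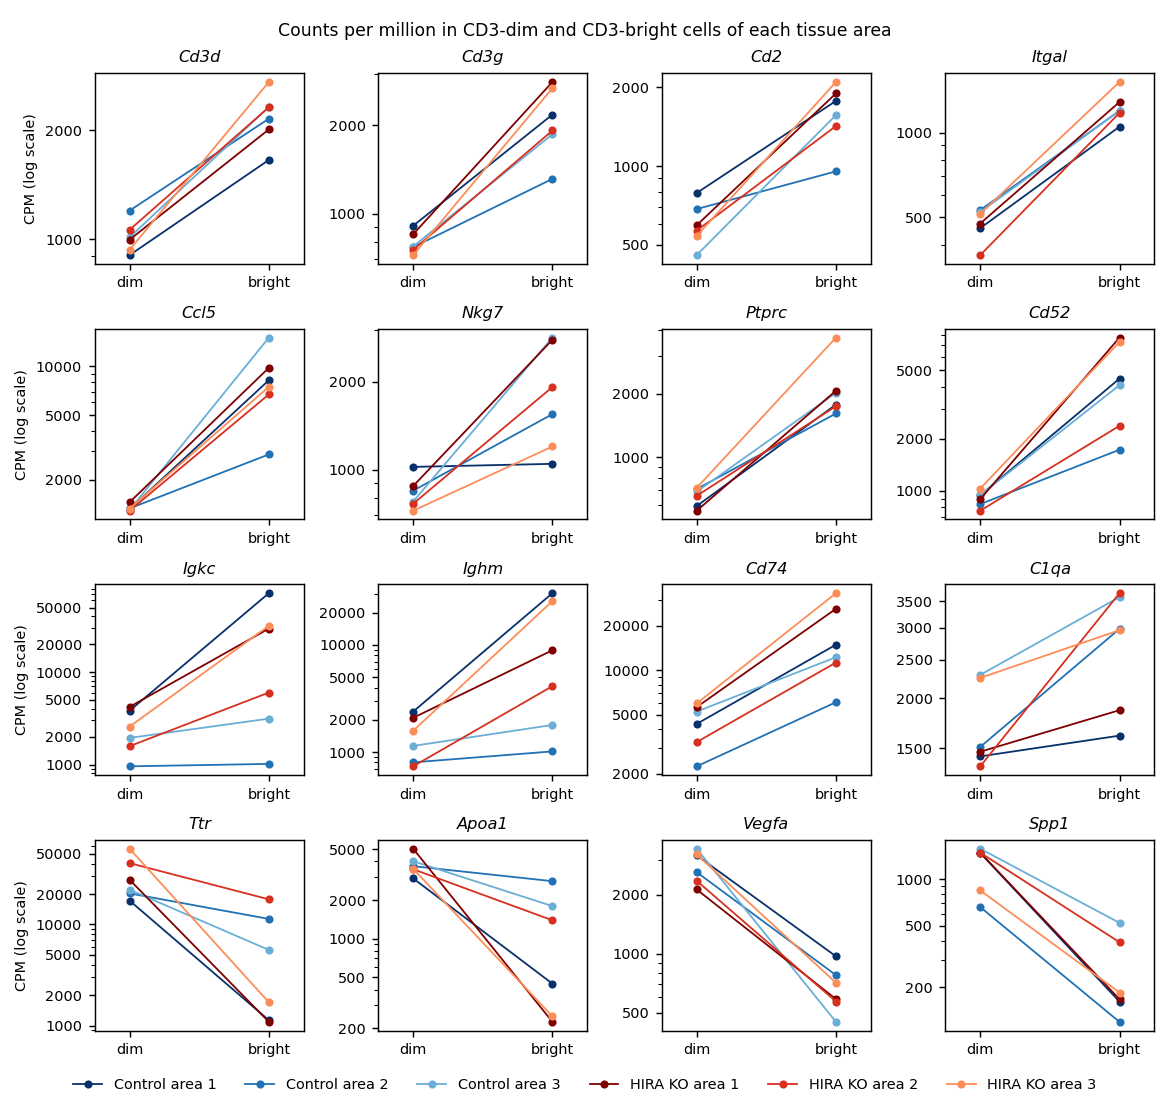
CPM (log scale) of 16 targets in CD3-dim and CD3-bright cells, 1 line per tissue area. Lines of Cd3d, Cd3g, Cd2, Itgal, Ccl5, Ptprc and Cd52 rise in all 6 areas, those of Ttr, Apoa1, Vegfa and Spp1 fall in all 6, and Igkc and Ighm reach their 3 highest levels in bright cells of the areas with a patch.

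Genes that all leukocytes share were higher in all 6 members tested, of 7 on the panel, beside 20.1% of all targets. Their median log2 fold change was 1.68, and Cd52, named above, is 1 of them. Ptprc, which encodes CD45, stood at 1775, 1612, 2016, 2064, 1744 and 3671 CPM in bright and at 562 to 719 CPM in dim cells. HIRA KO area 3 was highest, no values overlapped, and the fold was 3.75 (edgeR, adjusted p = 5.95e-07). Arhgdib, a regulator of small GTPases in blood cells, was 3.36-fold higher. All 6 members were higher also with the patches left out, with small cells only and by library size. Over all targets the higher calls were then 16.5%, 13.4% and 122 of 998.

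Markers of other cell types moved with the CD3 stain as well, and their part in the results above was not tested. B cell genes were higher in 7 of 8 cases and lower in none, beside 20.1% and 12.3% of all targets, with a median of 1.17. Their summed level was 12003 to 50964 CPM in bright cells against 8505 to 11549 CPM in dim cells. That sum includes Cd74, which is also an antigen presentation gene. In control area 2 Cd74 alone held 6091 of 12003 CPM in bright and 2250 of 8505 CPM in dim cells. It held 12245 of 18442 and 5267 of 10783 CPM in control area 3. In HIRA KO area 2 it held 11282 of 16941 and 3279 of 8700 CPM. The higher sum in these scattered areas thus rested largely on Cd74. Cd79a, a signalling chain of the B cell receptor, stood at 2219, 537, 373, 2957, 961 and 2931 CPM against 652 to 896 CPM. Only the 3 areas with a patch and HIRA KO area 2 were above their dim cells, and the log2 fold change of 1.30 (edgeR, adjusted p = 0.00249) became 0.49 (adjusted p = 0.0707) without the patches. Ms4a1, which encodes CD20, went from 1.08 to 0.11 (adjusted p = 0.738, edgeR). Without the patches 2 of 8 B cell genes were higher, beside 16.5% of all targets, with a median of 0.22. Cd79a and Ms4a1 were chosen after their values were seen.

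Antibody genes showed the same dependence on the patches. Igkc, the kappa light chain, stood at 71578, 1015, 3136, 29623, 6015 and 31775 CPM in bright cells and 3823, 955, 1941, 4205, 1579 and 2573 CPM in dim cells. The areas with a patch held the 3 highest values and control area 2 was level with its dim cells. Its log2 fold change was 2.54 ± 0.49 (edgeR, adjusted p = 0.000601), and 1.09 without the patches. Ighm, the heavy chain of IgM, stood at 30423, 1015, 1792, 8926, 4128 and 25667 CPM against 737 to 2386 CPM, with 2.54 ± 0.43 and 1.39 without the patches. Of 9 plasma cell genes 5 were higher and none lower, beside 20.1% and 12.3% of all targets, with a median of 0.83. Without the patches 3 were higher and 1 lower, beside 16.5% and 8.52% of all targets, with a median of −0.02.

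In the fields of view with a patch, the bright cells of control area 1, HIRA KO area 1 and HIRA KO area 3 held 81500, 31764 and 33236 CPM of Igkc. The other cells of the same fields of view held 21325, 17693 and 16044 CPM. Cd79a in the patch cells was 2168, 3120 and 3071 CPM and Cd3g 2122, 2902 and 2522 CPM, so transcripts of both lymphocyte types were counted there. Ccl19, a chemokine that attracts T cells and dendritic cells in lymphoid tissue, was 4428, 4649 and 2877 CPM. The other cells of these fields held 1750, 2030 and 1394 CPM of it. Cxcl13, another chemokine of the homing list, was 738, 1279 and 841 CPM in the patch cells against 964, 606 and 1443 CPM. It was thus lower in the patches of control area 1 and HIRA KO area 3 and higher in that of HIRA KO area 1. With 3 patches, these values were not tested, and the patch genes other than Igkc were chosen after their values were seen.

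Antigen presentation genes were higher in 8 of 12 cases and lower in none, beside 20.1% and 12.3% of all targets. Their median was 0.80. Cd74, the invariant chain that guides MHC class II molecules, stood at 14889, 6091, 12245, 25996, 11282 and 33133 CPM in bright and 2250 to 5973 CPM in dim cells. Its lowest bright value, in control area 2, was just above the highest dim value, and the log2 fold change was 2.03 ± 0.27 (edgeR, adjusted p = 1.71e-05). The MHC class II chains H2-Aa, H2-Eb1 and H2-Ab1 were 3.48-fold, 3.39-fold and 3.24-fold higher. Without the patches all 4 still passed, at 1.56, 1.35, 1.30 and 1.42.

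Kupffer cell and macrophage genes were higher in 7 of 14 cases, beside 20.1% of all targets, with a median of 0.52. Their summed levels overlapped, at 11994 to 32422 CPM in bright and 11719 to 17652 CPM in dim cells. Ctsd, a lysosomal protease, stood at 1977, 1971, 2763, 2343, 6762 and 3023 CPM against 1343 to 1862 CPM, with 1.08 ± 0.21 (edgeR, adjusted p = 0.000583). HIRA KO area 2 held the most of it. Here leaving the patches out raised the list, to 9 of 14 with a median of 0.92, beside 16.5% of all targets higher. Cd5l, a secreted protein of Kupffer cells chosen after its values were seen, stood at 928, 3882, 3808, 307, 3167 and 679 CPM in bright cells. It was above its dim cells only in the 3 scattered areas, so that the log2 fold change of 0.58 (edgeR, adjusted p = 0.196) became 1.45 without the patches (adjusted p = 1.08e-09). With small cells only, 2 Kupffer cell genes were higher and 2 lower, beside 13.4% and 8.73% of all targets. By library size 6 were higher and 3 lower, beside 122 and 279 of 998 targets. Mrc1, the mannose receptor, was at −0.50 (adjusted p = 0.0692) and Cx3cr1, a receptor of monocyte-derived cells, at −0.12 (adjusted p = 0.598), both by edgeR.

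Hepatocyte genes were lower in 16 of 20 cases and higher in none, beside 12.3% of all targets lower, with a median log2 fold change of −1.07. Their summed level was 23402 to 73350 CPM in bright and 84784 to 149913 CPM in dim cells, so hepatocyte transcripts were reduced but far from absent. Ttr, the thyroid hormone carrier transthyretin, stood at 1130, 11346, 5600, 1088, 17724 and 1697 CPM in bright cells against 17212, 20290, 22055, 27647, 40457 and 56111 CPM in dim cells. It was lower in 6 of 6 areas, with −2.68 ± 0.50 (edgeR, adjusted p = 0.000424), and −1.45 without the patches. The 3 scattered areas kept more Ttr in bright cells than the 3 areas with a patch. Vegfa, the vascular growth factor, showed no such division, at 968, 776, 448, 586, 569 and 710 CPM against 2126 to 3432 CPM. Its log2 fold change was −1.81 ± 0.19 (edgeR, adjusted p = 1.5e-06), and −1.96 without the patches.

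Other plasma proteins made by hepatocytes followed Ttr. Fgg, a fibrinogen chain, was at −1.94 ± 0.29. Apoa1 and Apoc1, apolipoproteins of plasma particles, were at −1.90 ± 0.35 and −1.76 ± 0.35. Gc, the vitamin D binding protein, was at −1.82 ± 0.37 and Azgp1, a secreted glycoprotein, at −1.58 ± 0.26. Fn1, fibronectin, was at −1.62 ± 0.24. All 6 were lower in 6 of 6 areas with no overlap of the sides, and all passed by edgeR also without the patches, where they ranged from −1.42 for Fn1 to −0.91 for Apoc1. In the list as a whole 14 of 20 were then lower and 1 higher, beside 8.52% and 16.5% of all targets.

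Bile duct genes were lower in 8 of 13 cases and higher in 2, beside 12.3% and 20.1% of all targets, with a median of −0.60. Spp1, osteopontin, stood at 161, 119, 523, 167, 391 and 185 CPM in bright cells and 1482, 661, 1578, 1488, 1488 and 847 CPM in dim cells. Its sides did not overlap, with −2.17 ± 0.21 (edgeR, adjusted p = 5.95e-07). Much of this fall lay below the bright threshold. The median of Spp1 over the areas was 1485 CPM below the 50th percentile of the stain and 511 CPM from the 50th to the 80th. It was then 441 CPM to the 95th, 369 to the 98th, 219 to the 99th and 168 above it. Low Spp1 was thus not particular to bright cells. Krt18, a keratin of hepatocytes and bile ducts, was at −1.54 ± 0.29. Those higher were Cd24a, a surface protein that B cells also carry, at 0.75 ± 0.19 (adjusted p = 0.00566, edgeR), and Ly6d, which also marks B cells and was chosen after its value was seen. Neither was higher without the patches, where 8 of 13 were lower, beside 8.52% of all targets. By library size 1 was higher and 11 lower, beside 122 and 279 of 998 targets.

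Genes of the vessel wall were lower in 7 of 13 cases and higher in none, beside 12.3% and 20.1% of all targets. Their median was −0.56. Tek, the angiopoietin receptor of endothelial cells, was lowest in p, at −0.79 ± 0.17 (edgeR, adjusted p = 0.00131), while Pecam1, an adhesion protein of endothelial cells, was at 0.15 (adjusted p = 0.527). Without the patches 2 were lower, beside 8.52% of all targets. Smooth muscle genes were lower in 1 of 5 cases, Myl9 at −0.69 ± 0.23, beside 12.3% of all targets. By library size 3 were lower, beside 279 of 998 targets. Stellate and fibroblast genes were higher in 1 of 14, Col1a1 at 0.57 ± 0.18 (edgeR, adjusted p = 0.0216), which with small cells only was at −0.12 and did not pass, and Rgs5 of pericytes was at −0.65 (adjusted p = 0.0566). This share is below the 20.1% of all targets. Without the patches none of the 14 genes was higher and 1 was lower, beside 16.5% and 8.52% of all targets. By library size 2 were lower, beside 279 of 998 targets, and among small cells 4 were, beside 8.73% of all targets. Of 8 neutrophil genes 0 passed by edgeR, 0 had an unadjusted p under 0.05 and 0 passed by DESeq2. By library size 2 were lower, beside 279 of 998 targets, and among small cells 1 was, beside 8.73% of all targets. The median was −0.10, with Csf3r, the receptor for the growth factor G-CSF, at 0.04 and Mpo, myeloperoxidase, at −0.28.

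Acute phase and interferon genes were higher in 4 of 10 cases and lower in 1, beside 20.1% and 12.3% of all targets. Their median was 0.21. By library size 4 were higher and 3 lower, beside 122 and 279 of 998 targets. Cxcl10, an interferon-induced chemokine that attracts Cxcr3-bearing cells, was at 0.69 ± 0.14, and Crp, an acute phase protein of hepatocytes, at −1.03 ± 0.18. Proliferation genes were higher in 4 of 6 cases, beside 20.1% of all targets, with Top2a, a topoisomerase of dividing cells, at 0.58 ± 0.15. Without the patches 2 were higher, beside 16.5% of all targets. By library size 1 was higher, beside 122 of 998 targets. Of 2 haemoglobin genes Hbb was higher, at 0.45 ± 0.16, beside 20.1% of all targets, and without the patches neither passed.

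**Figure D4:**
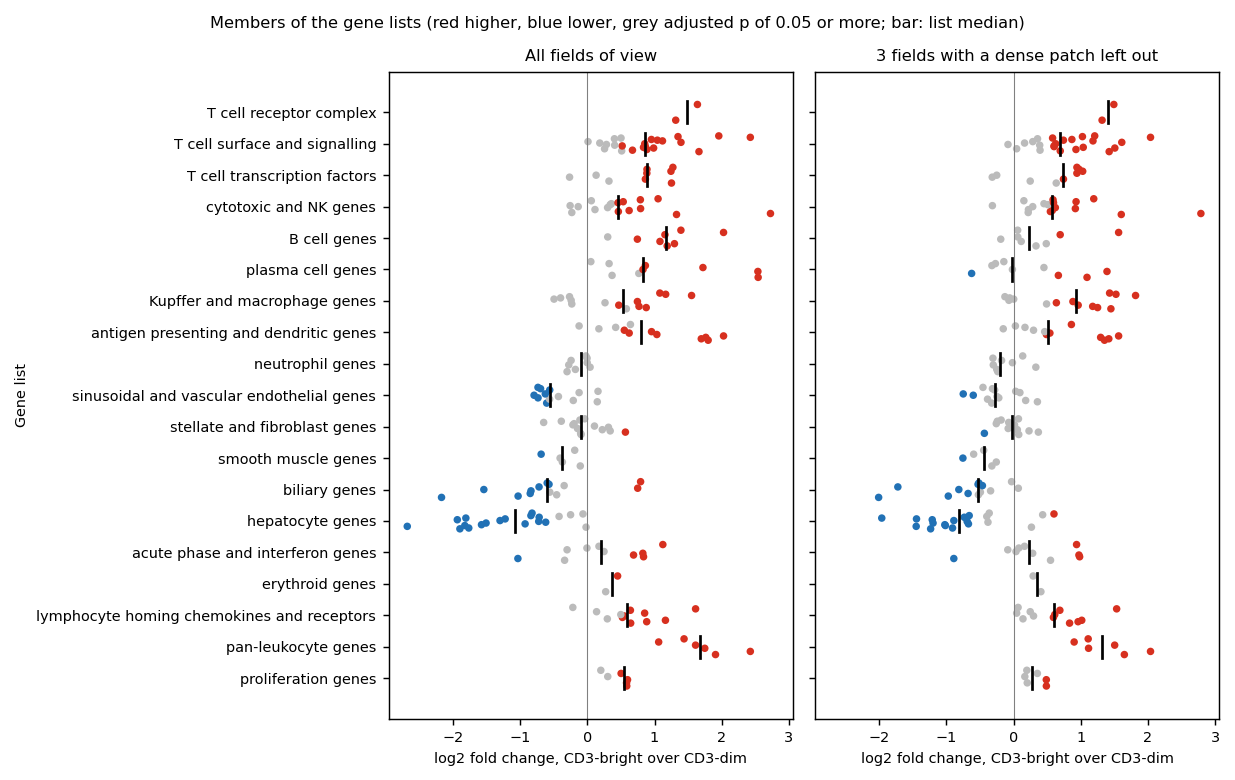
Log2 fold changes of the members of 19 gene lists (points; red higher, blue lower, grey not passed at an adjusted p of 0.05) with the list median as a bar, over all fields of view (left) and with the 3 fields of view that hold a dense patch left out (right). Medians of the T cell lists stay to the right of 0 in both panels, while the medians of the B cell and plasma cell lists go from 1.17 and 0.83 to 0.22 and −0.02 and that of the Kupffer cell list goes from 0.52 to 0.92.

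Transcript levels were also followed over the whole range of the stain, in 6 bins of percentile. Cd3d had a median over the areas of 1004 CPM below the 50th percentile, 1001 from the 50th to the 80th, 1155 to the 95th, 1714 to the 98th, 2059 to the 99th and 2373 above it. Cd3g went from 771 through 801, 1007, 1589 and 1976 to 2387 CPM, and Ccl5 from 1323 through 1401, 1857, 4485 and 6153 to 9351 CPM. These medians began to part from those below the 50th percentile between the 80th and 95th percentiles. In that bin Cd3d was still lower in control area 2 (1131 against 1199 CPM) and HIRA KO area 2 (992 against 1060 CPM). Cd3g was lower only in HIRA KO area 2 (735 against 752 CPM), and the other areas were higher. From the 95th to the 98th percentile both were higher in every area, so this held below the threshold of 2% as well. The median of Cd5l took another course, at 1211, 1853, 2754, 2583, 2017 and 1607 CPM, highest from the 80th to the 95th percentile. Each area with a patch was highest in that bin, but the scattered areas were highest further up. Control area 2 reached 5027 CPM above the 99th percentile and control area 3 reached 4119 CPM from the 95th to the 98th. HIRA KO area 2 reached 3569 CPM from the 98th to the 99th. Ttr held 24855, 26573 and 21059 CPM up to the 95th percentile, then 9370, 3587 and 3710 CPM. Areas differed widely within a bin, and the bins share their areas with the comparison above, so they are a description.

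**Figure D5:**
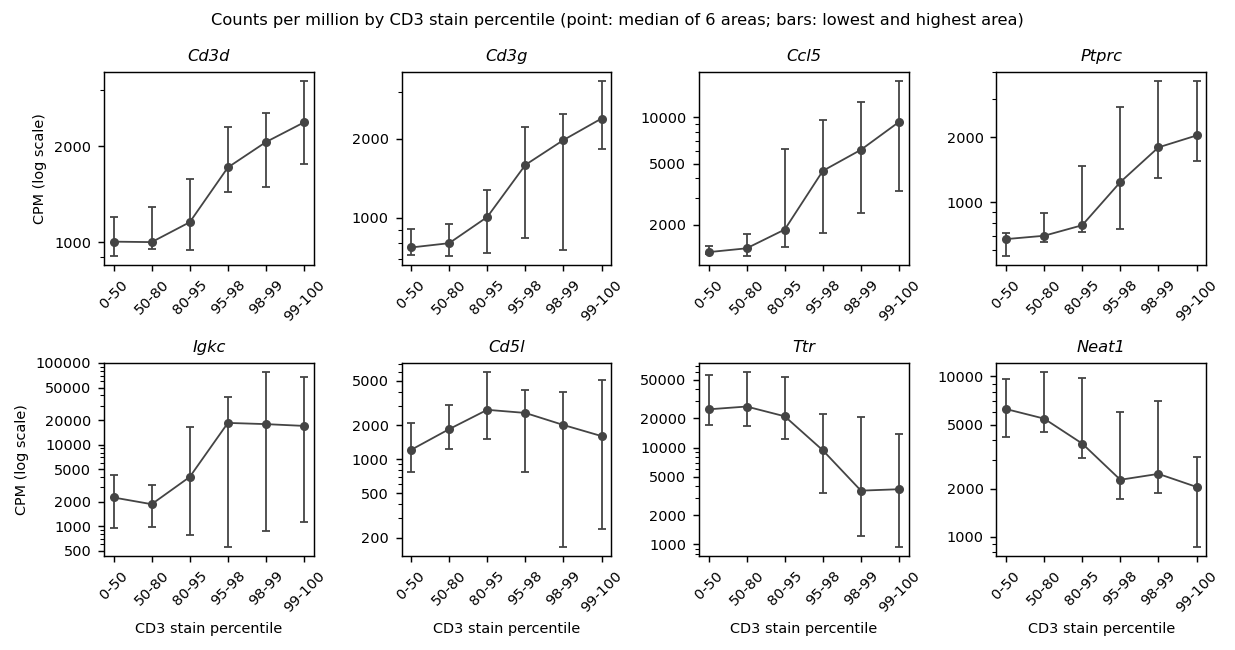
CPM (log scale) of 8 targets by percentile of CD3 stain, with the median of the 6 areas (point) and the lowest and highest area (bars). The medians of Cd3d, Cd3g, Ccl5 and Ptprc are highest in the top percentile, and the bars of Igkc are the widest above the 95th. The median of Cd5l is highest from the 80th to the 95th, though the scattered areas were highest further up.

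CD45-bright cells, the top 2% for CD45 in each area, are the cells most like the CD3-bright ones: 481 of 1001 cells of each set were in both. To ask what set the CD3 stain apart, cells bright only in CD3 were compared with cells bright only in CD45, with the area as a block. The 481 cells bright in both stains entered neither side, so the comparison covers only a part of the CD3-bright cells. Of 353 targets with enough counts, 5 were higher in the CD3-only cells (1.42%) and 7 lower (1.98%), or 3.4% in all. Most of the lower ones belong to antigen presentation. Cd74 stood at 11538, 1963, 10111, 24193, 7350 and 32336 CPM in CD3-only and 26248, 14511, 30213, 38630, 31197 and 45449 CPM in CD45-only cells. It was lower in 6 of 6 areas, with −1.46 ± 0.28 (edgeR, adjusted p = 0.00189), although areas with much Cd74 on one side had much on the other.

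H2-Aa, H2-Ab1, H2-Eb1 and H2-DMb2, further genes of the MHC class II route, were at −1.58 ± 0.30, −1.39 ± 0.26, −1.33 ± 0.28 and −1.25 ± 0.24 in the same comparison. The other lower ones, Ighd and Ly6d of B cells, were at −1.37 and −1.03. Higher in CD3-only cells was Rgs1, a brake on chemokine receptor signalling in lymphocytes, at 2648, 1033, 1748, 1733, 1459 and 1069 CPM against 269, 586, 1024, 959, 789 and 561 CPM. The sides of each area were apart in 6 of 6 cases, with 1.04 ± 0.27 (edgeR, adjusted p = 0.0255). Maf, a transcription factor of T cells and macrophages, was at 1.04 ± 0.29, and Ttr and Selenop, secreted by hepatocytes, at 1.41 ± 0.26 and 1.19 ± 0.23, beside Gc at 1.24. Cd3d, Cd3g and Ccl5 were at 0.33 ± 0.22, 0.42 ± 0.24 and 0.70 ± 0.30 and did not pass (edgeR, adjusted p = 0.561, 0.475 and 0.326). A difference of the Cd3 transcripts between these 2 sets was therefore not detected at 5287 to 18768 counts per sum. Since CD3-bright cells that were also CD45-bright were left out, this result does not speak for CD3-bright cells as a whole. Without the area block none of the 353 targets passed (edgeR, 24 at an unadjusted p under 0.05), and with the patches left out Rgs1 was at 0.59 (adjusted p = 0.2) and Maf at 0.66 (adjusted p = 0.136). In that setting Cd74, H2-Aa, H2-Ab1 and H2-Eb1 passed, while H2-DMb2, Ighd and Ly6d had too few counts to be tested.

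HIRA KO and control areas were compared in 2 ways. Levels in bright cells of the 3 HIRA KO areas against the 3 control areas gave 0 of 872 targets past the threshold (0.0%) by edgeR, with 56 at an unadjusted p under 0.05, and 0 by DESeq2, with 38. Cd3d had a log2 difference of 0.35 ± 0.33 (adjusted p = 0.889), Cd3g of 0.58 ± 0.37 (adjusted p = 0.84) and Ccl5 of −0.01 ± 0.59 (adjusted p = 0.995), all by edgeR. A p above the threshold does not show that the levels were alike, since only 3 areas stood on each side. With the patches left out 1 target passed, Igha, the heavy chain of IgA, at 2.94 (adjusted p = 0.0472), against 1.17 with them (adjusted p = 0.754). Its levels in scattered bright cells were 179, 299, 523, 5234, 1530 and 817 CPM, higher in each HIRA KO area and most so in the first. Scattered dim cells held 386, 426, 612, 1270, 1387 and 1125 CPM of Igha and were divided the same way, and HIRA KO area 3 had less in bright than in dim cells.

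The bright-dim difference itself was also compared between the genotypes, and 0 of 998 targets differed (0.0%) by edgeR, with 52 at an unadjusted p under 0.05, and 0 by DESeq2, with 50. Cd3d differed by 0.34 ± 0.30 and Cd3g by 0.62 ± 0.31 on the log2 scale, toward a larger bright-dim difference in HIRA KO areas (edgeR, adjusted p = 0.97 and 0.909). Median counts per cell, counts per 1000 square pixels and cell area of bright minus dim cells differed by 34 counts, 10.1 counts and 1139 square pixels between HIRA KO and control (exact permutation tests of 3 against 3 areas, two-sided, p = 0.3, 0.3 and 0.8, where 0.1 is the smallest p possible). Each genotype holds areas with and without a patch, 1 of 3 among controls and 2 of 3 among HIRA KO, so this spread is part of every genotype comparison.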

How the data were processed

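The deposited counts are RNA molecules decoded by CosMx, which the authors' platform assigned to segmented cells. The deposited stain values are intensity in arbitrary units, as a mean over a cell or its brightest pixel, and background correction, pixel size and segmentation version are not given in the sources used here. Per the file headers, cell areas are in square pixels. Areas were read from the positions of the fields of view. Cells with at least 20 gene counts were kept, the count minimum of the study's methods. Their limit on cell area, 5 times the geometric mean, was run as an alternative. The authors' later normalisation, batch integration and cell type calls were not used here.

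Counts were summed per area and side and tested with edgeR 4.0.16 (quasi-likelihood, TMM, filterByExpr, Benjamini-Hochberg, threshold 0.05; limma 3.58.1, R 4.3.3), with DESeq2 1.42.0 as an alternative. Sums of 13393 to 35851 counts limit the bright side. Bright-dim fits had the area as a block, and genotype fits compared 3 with 3 areas. Cell size and counts per cell were tested by exact permutation (scipy 1.17.1). The fits were tested on simulated data with 1 spread for all targets and no area differences beyond total counts, unlike these data. Of changes of 1 on the log2 scale, 97% were recovered in the bright-dim fit and 43% in its genotype difference. The fit of bright cells by genotype recovered 69.0% and that of CD3-only against CD45-only cells 60.6%. Of changes of 2, 94% to 100% were recovered. False calls were 9 of 798, 6 of 798, 4 of 684 and 9 of 302 unchanged targets in this order. Named genes were up to 10 per direction by fold (5 in the other fits) among calls of one direction in all areas and with a total above that of the highest negative probe, with the members of the T cell receptor complex and those of lowest p in each list. Of 47 named genes, 46 matched RefSeq. The members and gene lists were chosen with earlier results of these data known. Alternatives were the scaling, filter, thresholds, stain summary, comparison side, cell size, other stains, each area left out and the block. Leaving out the fields of view with a patch, or cells within 50 pixels of a field edge, was added after seeing the data. Single transcripts and cell outlines were not used here.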

Additional observations from a re-analysis of the deposited data

Results flagged for a closer look

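Gpnmb, which encodes a glycoprotein of lipid-laden and activated macrophages, differed between the genotypes in its bright-dim difference under 2 settings. With thresholds set within each field of view the HIRA KO difference exceeded that of control by 1.83 on the log2 scale (edgeR interaction term, adjusted p = 0.0163), and with the fields of view that hold a dense patch left out by 1.83 (adjusted p = 0.0386). Over all fields of view with area thresholds it was 1.62 ± 0.53 (adjusted p = 0.87). The log2 ratio of bright over dim cells was 0.45, 0.13 and 0.42 in the control areas and 0.80, 3.27 and 1.13 in the HIRA KO areas. HIRA KO areas lay above control areas, and area 2 of HIRA KO, with 5018 CPM of Gpnmb in bright cells against 537 to 1018 CPM in the others, stood far above the rest. Over both genotypes Gpnmb was higher in bright cells in 6 of 6 areas, at 1.55 ± 0.31 (edgeR, adjusted p = 0.000727).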

How the results depend on the processing

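No alternative called a gene in the direction opposite to the values above in the bright-dim test. The count of higher and lower targets was 122 and 279 by library size, 1 and 1 by the brightest pixel, and 99 and 45 without bright cells that were also bright in another stain. Leaving out 1 area gave 143 to 190 higher and 74 to 126 lower, the fewest without HIRA KO area 1. With thresholds within each field of view, and with the patches left out, 1 target each differed between genotypes in its bright-dim effect (Gpnmb), and with the patches left out 1 differed in bright cells (Igha). For cells bright in CD3 only against CD45 only, higher and lower calls were 3 and 5 by DESeq2, 0 and 0 without the area block, 12 and 23 at the top 5%, 13 and 13 within fields of view, 8 and 15 by the brightest pixel, 8 and 8 without the patches, and 3 to 6 and 5 to 9 without 1 area; with control area 1 or HIRA KO area 1 left out 3 were higher.

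Median counts per cell, bright minus dim, were −1.42 at the top 5%, −22.4 within fields of view and −25.8 without the patches (exact sign-flip permutation tests, p = 0.875, 0.03125 and 0.03125), and 99 by the brightest pixel (p = 0.03125, exact). Counts per 1000 square pixels were 7.46 higher at the top 5% (p = 0.09375, exact) and 7.05 by the brightest pixel (p = 0.0625, exact), and 8.35 to 13.99 without 1 area. Cell area differed by 6083 by the brightest pixel (p = 0.25, exact), −467.8 among small cells (p = 0.0625, exact) and −5262 to −4247 without 1 area. With 5 areas the smallest p is 0.0625, so these tests could not pass. The genotype difference in cell area was −335.5 at the top 5%, −7231 by the brightest pixel and −313.5 among small cells.

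Genes that had not passed changed sign: Eomes to 0.27 and Ncr1 to 0.015 among small cells, Mrc1 to 0.0023, Cx3cr1 to 0.028 and Itgae to 0.068 without the patches, Itgae to 0.12 by the brightest pixel, Mpo to 0.012 and Rgs5 to 0.022 within fields of view. Cx3cr1 was at 0.10 at the top 1%, 0.0097 at the top 5%, 0.16 within fields of view and 0.36 among small cells. Csf3r was at −0.18 by library size, −0.25 at the top 1%, −0.024 against all cells under the 98th percentile, −0.32 among small cells and −0.26 to 0.16 without 1 area, lower than 0 without HIRA KO area 1 (−0.13) or 2. Pecam1 was at −0.064 by library size, −0.16 by the brightest pixel and −0.21 among small cells. Of genes that had passed, Col1a1 was at −0.12 among small cells, and Rgs1, in CD3-only against CD45-only cells, at −0.29 by the brightest pixel. The cause was not tested. Over the single genes 899 values were on the same side of the threshold, 110 no longer passed, 9 newly passed and 23 changed sign. No paired analysis was possible by replicate number because the numbers in the labels are those of fields of view and no number is shared by control and HIRA KO samples. Each row of the slide held 1 control and 1 HIRA KO area, and with the row as a block 0 of 872 targets differed in bright cells (edgeR, 80 at an unadjusted p under 0.05).

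The brightest pixel gave only 2 calls in the bright-dim test, so these calls rest on the mean stain of a cell. Sums of bright cells in control area 3 held the fewest counts, so small differences of rare targets there are below what can be seen.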
